A study of Mus musculus with 8 samples.

Results

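The genes described here are the nuclear receptor PPAR alpha and 37 genes of fatty acid oxidation and lipid handling, most of which are textbook targets of that receptor. The 38 genes came from a given list and were matched by gene symbol to the deposited expression tables, which hold 53816 gene IDs per library. All 38 were found, and all 38 were among the 13055 genes tested, whose mean over the 8 libraries reached 1 TPM or more. TPM, the unit used throughout, is read coverage scaled for transcript length and then to the same total in each library, so levels may be compared between genes.

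The samples were livers of 8 mice that had all undergone bile duct ligation, in which the duct is tied off and bile backs up into the liver. The control group held 4 wild-type mice, named control 1 to 4 here. The other 4 mice carried the genotype label "LSEC Myc overexpression", LSEC being the usual abbreviation of liver sinusoidal endothelial cell, and are named Myc-labelled 1 to 4. The labels used here do not state strain, sex, age, the promoter or Cre driver, the time after surgery or feeding state. The p-values below measure the spread between these 8 livers.

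PPAR alpha is a ligand-activated transcription factor that works as a partner of the retinoid X receptor and, in the liver, drives the genes for burning fatty acids during fasting. Fatty acids are taken up, activated to acyl-CoA and either stored in droplets or carried into mitochondria on carnitine, where beta-oxidation shortens them. Very long chains are shortened first in peroxisomes, cytochromes of the Cyp4a family start oxidation at the other end of the chain, and the liver exports much of the product as ketone bodies.

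The receptor pair binds a direct repeat of AGGTCA with 1 base between the copies, so the promoters of the genes were searched for it. The motif was AGGTCANAGGTCA, on either strand, with at most 2 mismatches, in the 300 bases from 250 before to 50 after each transcription start in RefSeq (GRCm38.p6). Of the 38 genes, 29 had such a window, 33 windows in all. A match lay in 5 of the 33 windows (15.2%), against 1268 of all 32851 windows (3.86%). The matches belonged to Fabp1, Plin2, Cd36, Creb3l3 and Slc25a20. Of these, 4 are printed because they lie before a RefSeq start of genes whose ranges between livers, given below, run from small (Creb3l3) to among the widest (Fabp1). Each is written on the strand of its gene, with the match in capitals.
Fabp1: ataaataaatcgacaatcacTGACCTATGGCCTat
Plin2: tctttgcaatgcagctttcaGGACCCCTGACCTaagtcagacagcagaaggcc
Cd36: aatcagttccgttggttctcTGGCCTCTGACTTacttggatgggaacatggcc
Creb3l3: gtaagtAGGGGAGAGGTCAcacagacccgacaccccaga
These stretches lie at chr6:71199792-71199826 (plus strand), chr4:86670252-86670304 (minus strand), chr5:17835927-17835979 (minus strand) and chr10:81092768-81092806 (minus strand), respectively. The Fabp1 match had 1 mismatch and the other 3 had 2. The Cd36 and Creb3l3 matches lie inside the deposited gene boundaries (chr5:17781690-17888801 and chr10:81084324-81098874). They precede a RefSeq start within the gene, not its outermost start. A match is a description of these letters and not evidence of binding.

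Myc itself did not follow the labels. The gene was at 272, 207, 554 and 89.2 TPM in controls 1 to 4 and at 339, 356, 25.6 and 249 TPM in Myc-labelled 1 to 4, a log2 difference of -0.45 ± 0.95 (SE; limma adjusted p = 0.9998). RNA of whole liver was measured, so Myc of endothelial cells was not seen apart from that of other cells, and endogenous Myc and a transgene were not told apart. Xist, expressed from the inactive X chromosome of female cells, was between 32.8 and 43.3 TPM in 5 libraries and below 1 TPM in control 3, Myc-labelled 3 and Myc-labelled 4, so the groups were not matched for it. Aligned bases were between 5.29 and 6.74 Gb per library. Mitochondrially encoded genes took 7.73 to 9.60% of TPM in controls and 10.02 to 11.2% in Myc-labelled livers.

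No group difference in any of the 38 genes passed the test against the spread between livers. With limma on log2(TPM + 1) and Benjamini-Hochberg adjustment over all 13055 genes, 0 of 38 passed an adjusted p of 0.05, and 0% of all genes did. At an unadjusted p under 0.05, 0 of 38 passed, where 1.86% of all genes did. In 0 of 38 genes were the 4 values of one group all above the 4 of the other, where this held for 1.26% of all genes. By sign alone 21 were higher and 17 lower in Myc-labelled livers, with a median log2 difference of 0.030 beside 0.037 over all genes. The smallest unadjusted p was 0.203, for Acaa1a, and every adjusted p was 0.9998.

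**Figure D1:**
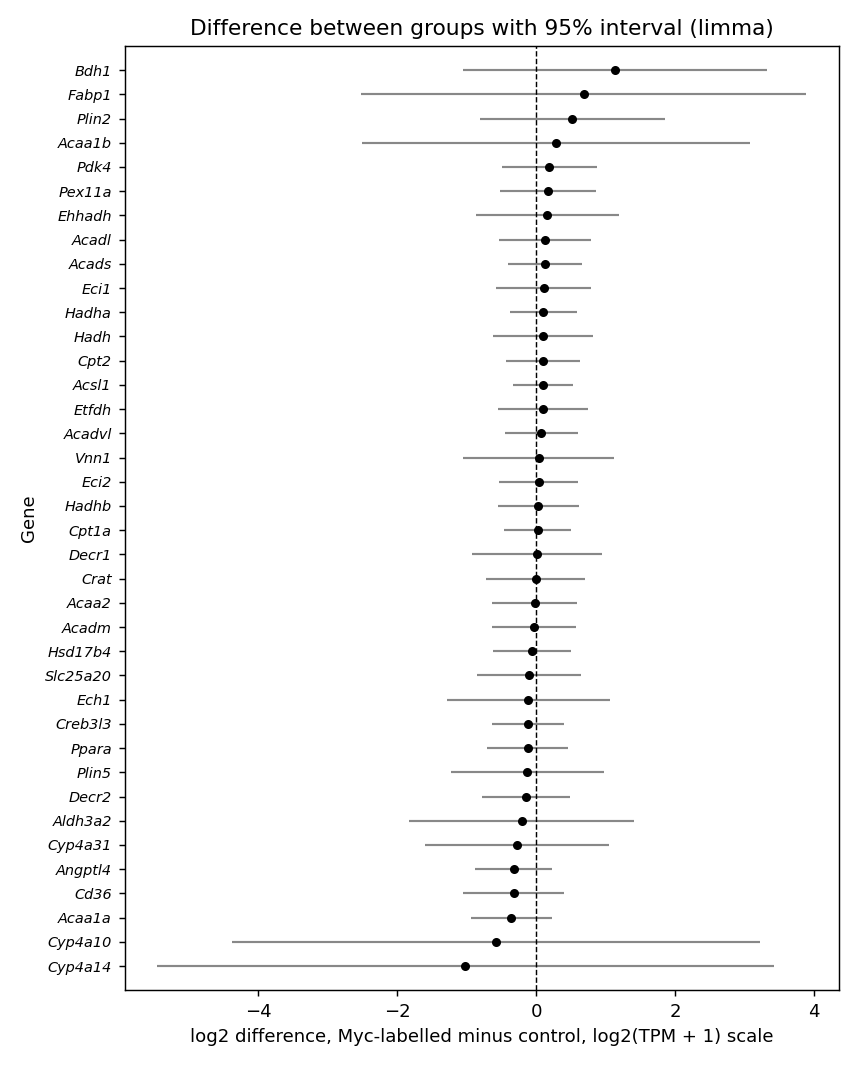
Log2 difference between the 4 Myc-labelled and the 4 control livers for each of the 38 genes (x axis, log2(TPM + 1) scale, Myc-labelled minus control), with 95% intervals from limma as bars and genes ordered by difference on the y axis. The differences run from -1.02 for Cyp4a14 to 1.13 for Bdh1, and every interval crosses 0.

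These intervals were wide. The median 95% interval reached 0.69 on either side of the estimate for the 38 genes and 0.47 for all genes tested. The median SD of log2(TPM + 1) over the 8 livers was 0.50 for these genes, 0.29 for all genes tested and 0.28 for the 8776 genes in the same range of mean level. The SD of 36 of the 38 exceeded the all-gene median. So the data left room for differences of well over 1 log2 unit in either direction for the most variable genes, such as Cyp4a14 (-5.46 to 3.42), Cyp4a10 (-4.38 to 3.22) and Fabp1 (-2.51 to 3.89).

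The wide spread had a common form, and its extremes were both Myc-labelled livers. Myc-labelled 1 held the highest value for 31 of 38 genes (81.6%, beside 35.8% of all genes), and Myc-labelled 3 the lowest for 33 of 38 (86.8%, beside 35.5% of all genes). Both held together for 27 genes (71.1%, beside 13.9% of all genes). Among the controls, control 2 was the lowest for 27 of the 38, a count for which the share over all genes was not computed. The same Myc-labelled livers were also the extremes of library composition. Genes at 1 TPM or more were most numerous in Myc-labelled 1 (13636) and fewest in Myc-labelled 3 (12442). The 10 most abundant genes took the smallest share of TPM in Myc-labelled 1 (18.8%) and the largest in Myc-labelled 3 (25.8%). The part of library composition in the spread was not tested.

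The average of the 38 genes, as log2(TPM + 1) minus each gene's mean over the 8 livers, was 0.26, -0.49, 0.070 and 0.14 in controls 1 to 4. In Myc-labelled 1 to 4 it was 0.91, 0.25, -1.14 and -0.00024. The Myc-labelled group therefore spanned the control group on both sides, with Myc-labelled 1 above it, Myc-labelled 3 below it and the other two within it.

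**Figure D2:**
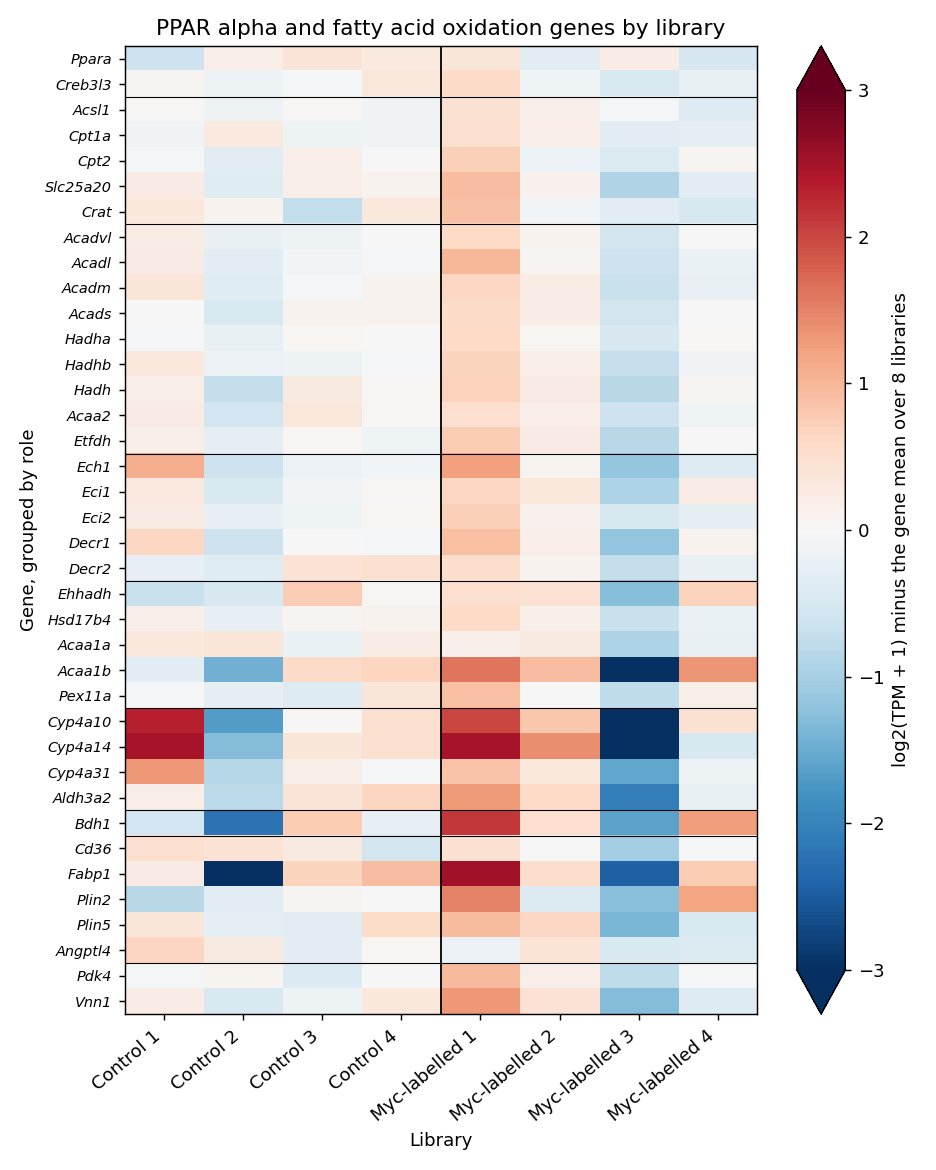
Log2(TPM + 1) of each gene minus its mean over the 8 livers (colour, red above and blue below the mean), with libraries on the x axis and genes grouped by role on the y axis; the vertical line separates controls from Myc-labelled livers. The column of Myc-labelled 1 is red in nearly every gene and that of Myc-labelled 3 blue, the column means being 0.91 and -1.14.

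Which of these livers was included set the sign of the group difference. Without Myc-labelled 1 the median difference was -0.20, with 35 of 38 genes lower. Without Myc-labelled 3 it was 0.28, with 34 of 38 higher and 4 genes at an unadjusted p under 0.05 (Eci1, Acaa1b, Bdh1 and Plin2), where 4.93% of all genes passed; the smallest limma adjusted p among the 38 was then 0.896. Without either liver it was 0.025, with 22 higher and 16 lower, and again 0 passed. Leaving out control 2 gave -0.11 and leaving out control 1 gave 0.11. Down-weighting divergent libraries with limma's array weights gave 0.15, with 32 higher, median-of-ratios scaling gave -0.016, with 16 higher, and a term for Xist above or below 1 TPM gave 0.16, with 29 higher.

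Markers of other cells also differed between these livers. Summed TPM of 8 stellate cell and myofibroblast markers was 28.0 to 123 in controls and 38.01 to 279 in Myc-labelled livers, and all 8 were highest in Myc-labelled 1 (Col3a1 85.9 TPM, Col1a2 69.5 TPM). Summed TPM of 7 Kupffer cell markers was 573 to 945 in controls and 351 to 789 in Myc-labelled livers, and all 7 were lowest in Myc-labelled 3 (Cd5l 78.1 TPM, C1qc 94.1 TPM). The 14 hepatocyte markers, led by Alb and Apoa1, summed to 85920.3 to 140773 TPM in controls and 82661 to 120384 TPM in Myc-labelled livers, with Myc-labelled 1 at 85449 and Myc-labelled 3 at 92008 TPM. Alb made up 54.8% of the sum in Myc-labelled 1 and 46.4% in Myc-labelled 3, and the single markers differed between those 2 livers, 9 of 14 being higher and 5 lower in Myc-labelled 1, from 0.311 to 1.55 times the level in Myc-labelled 3. In bulk tissue, fewer cells of a type and less RNA per cell cannot be told apart.

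The 9 endothelial markers, led by Clec4g and Cdh5, summed to 110.1 to 179 TPM in controls and 71.0 to 149 TPM in Myc-labelled livers. Cholangiocyte markers (8, led by Spp1 and Krt19) summed to 102 to 325 and 119.9 to 972 TPM, neutrophil markers (6, led by S100a9 and S100a8) to 14.3 to 68.6 and 26.4 to 157 TPM, and erythroid markers (5, led by Hbb-bs and Hba-a1) to 354 to 1773 and 735 to 1593 TPM. Adipocyte markers (6, led by Plin4 and Cfd) summed to 1.81 to 6.05 and 3.90 to 56.5 TPM, with Lep at 0 in all 8 and Cfd above 0 in Myc-labelled 2 alone (43.2 TPM), and muscle markers (6, led by Actc1 and Fabp3) stayed under 1 TPM in sum. By the sign of the group difference on the log2 scale, the tested markers were lower in Myc-labelled livers for 9 of 9 endothelial, 7 of 7 Kupffer cell and 12 of 14 hepatocyte genes. They were higher for 8 of 8 stellate, 7 of 7 cholangiocyte, 6 of 6 neutrophil, 5 of 5 erythroid and 2 of 2 adipocyte genes, and 0 passed an adjusted limma p of 0.05 in any of these lists. Of all genes tested, 58.0% were higher. At an unadjusted limma p under 0.05, 3 of 9 endothelial and 2 of 6 neutrophil genes passed, where 1.86% of all genes did. So did 1 of 8 stellate, 1 of 14 hepatocyte and 1 of 2 adipocyte genes, and 0 Kupffer cell, cholangiocyte or erythroid genes. The part of these cells in the spread of the oxidation genes was not tested.

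Of the acute-phase genes, Saa1 and Fgb were singled out after their values were seen. Saa1 was at 10872, 6676, 316 and 6092 TPM in controls 1 to 4 and at 4188, 2347, 23611 and 8206 TPM in Myc-labelled 1 to 4. Fgb, a fibrinogen chain, was at 5414, 9763, 3529 and 2648 TPM in controls 1 to 4 and at 3458, 3441, 11113 and 5826 TPM in Myc-labelled 1 to 4. Both were highest in Myc-labelled 3, where the oxidation genes were lowest. Fgb was next highest in control 2, which had the second lowest average of the oxidation genes. Saa1 was instead next highest in control 1, which had the second highest average (0.26), and was lowest in control 3. The part of the acute-phase response in the spread was not tested.

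Ppara itself, at chr15:85734983-85802819 on the plus strand (mm10), spanned 2.17-fold between livers and had low correlations with the others. It measured 6.51, 12.4, 14.1 and 13.1 TPM in controls 1 to 4 and 13.9, 8.24, 12.5 and 7.21 TPM in Myc-labelled 1 to 4. The lowest value was in control 1, the groups overlapped almost fully, and Myc-labelled 3, lowest for most other genes, was in the upper range for the receptor. The group means were 11.5 ± 3.43 and 10.5 ± 3.26 TPM (SD, n = 4 each), and the log2 difference was -0.12 ± 0.27 (SE; limma adjusted p = 0.9998). Its Pearson r with the other 37 genes over the 8 livers ran from -0.47 to 0.36, with a median of -0.062, and was negative for 22 of them.

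Creb3l3, a liver transcription factor that is both a target and a partner of PPAR alpha, measured 156, 132, 139.7 and 186 TPM in controls 1 to 4 and 219, 133, 105 and 126 TPM in Myc-labelled 1 to 4. It had a range of 2.08-fold between the lowest liver, Myc-labelled 3, and the highest, Myc-labelled 1, close to the 2.17-fold of Ppara. Unlike the receptor it followed the rest, with a median r of 0.76. Its log2 difference was -0.12 ± 0.23 (SE).

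Among the genes that activate fatty acids and carry them into mitochondria, Acsl1 and Cpt1a spanned less than the other 3. Acsl1, a long-chain acyl-CoA synthetase, measured 102, 88.3, 102 and 91.5 TPM in controls and 136, 109.9, 96.2 and 75.8 TPM in Myc-labelled livers, all 4 controls lying inside the Myc-labelled range. Its log2 difference was 0.095 ± 0.20 (SE). Cpt1a, the carnitine transferase that sets the rate of entry, had means of 125 ± 19.9 and 130.02 ± 36.0 TPM (SD, n = 4 each), and its highest liver exceeded its lowest by 1.76-fold, the smallest range of the 38. Cpt2 (the inner-membrane transferase), Slc25a20 (the carnitine carrier) and Crat (the short-chain transferase) spanned 2.26-, 3.62- and 3.19-fold, with log2 differences between -0.10 and 0.10. Crat overlaps Dolpp1 on the other strand, and no source used here states whether the counting used strand.

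The 9 genes of mitochondrial beta-oxidation itself spanned 2.12- to 3.09-fold between livers, and their group differences lay between -0.029 and 0.13 on the log2 scale, 7 higher and 2 lower in Myc-labelled livers. The chain-length series of acyl-CoA dehydrogenases (Acadvl, Acadl, Acadm and Acads, from very long to short chains) averaged 189.6, 109, 235 and 77.5 TPM in controls and 207, 129, 239 and 86.7 TPM in Myc-labelled livers. Acads measured 80.2, 58.3, 85.6 and 85.7 TPM in controls and 119, 93.6, 54.3 and 80.1 TPM in Myc-labelled livers, lowest in Myc-labelled 3 and next lowest in control 2. Acadm stood nearest to the common pattern, with a median r of 0.90 with the other genes. Acaa2, the mitochondrial thiolase, was the most abundant of the 38, with means of 428 ± 109 and 428 ± 138 TPM (SD, n = 4 each). Etfdh, which passes electrons from these dehydrogenases to the respiratory chain, averaged 93.2 ± 12.7 and 107 ± 45.9 TPM, and Hadh, the short-chain hydroxyacyl-CoA dehydrogenase, 135 ± 36.6 and 151 ± 59.97 TPM.

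Hadha and Hadhb encode the 2 subunits of the mitochondrial trifunctional protein and start back to back. Only 85 bases, chr5:30155163-30155247 (GRCm38.p6, written on the plus strand), lie between the deposited gene boundaries, and they are shown because both genes share them; 69.4% of the bases are G or C, and 0 matches to the motif above were found. No letters are marked.
Hadha-Hadhb interval: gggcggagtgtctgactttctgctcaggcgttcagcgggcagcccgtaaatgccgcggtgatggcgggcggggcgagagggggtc
Hadha measured 63.6, 56.9, 69.2 and 67.1 TPM in controls and 101, 69.4, 47.6 and 68.1 TPM in Myc-labelled livers. Hadhb measured 103, 72.5, 74.2 and 78.6 TPM in controls and 130.4, 95.4, 50.6 and 76.2 TPM in Myc-labelled livers. Both were highest in Myc-labelled 1 and lowest in Myc-labelled 3. Their r over the 8 livers was 0.87 (exact permutation p = 0.0151, adjusted p = 0.0452 over 12 pairs) and Spearman's rho was 0.67 (exact permutation, adjusted p = 0.249). Without those same 2 livers r was 0.17 (exact permutation p = 0.790), so the relation rested on them.

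The auxiliary enzymes that handle unsaturated chains spanned more. Ech1, a dienoyl-CoA isomerase, ranged 5.36-fold and Decr1, the mitochondrial dienoyl-CoA reductase, 4.51-fold, whereas Eci1 and Eci2, the enoyl-CoA isomerases, ranged 2.99- and 2.33-fold. Decr2, the peroxisomal reductase, measured 58.7, 54.0, 93.9 and 97.2 TPM in controls and 101, 75.4, 41.9 and 59.7 TPM in Myc-labelled livers. Its controls fell into a lower pair (1 and 2) and a higher pair (3 and 4), and its log2 difference was -0.15 ± 0.29 (SE).

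Of the peroxisomal genes, the thiolases Acaa1a and Acaa1b behaved differently from each other although their coding sequences are 96.5% identical over 1272 bases, with an identical run of up to 327 bases. The 60-base coding windows with the most differences between them show how far reads could tell them apart. Mismatched bases are in capitals, and each window is written on the strand of its gene (mm10, GENCODE M21).
Acaa1a: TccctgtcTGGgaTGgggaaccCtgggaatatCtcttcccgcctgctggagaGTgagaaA
Acaa1b: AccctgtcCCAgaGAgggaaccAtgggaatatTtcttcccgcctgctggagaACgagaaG
The windows lie at chr9:119346483-119346542 (plus strand) and chr9:119151842-119151901 (minus strand) and differ at 11 of 60 bases. Reads from identical runs could be assigned to either gene, so both levels are uncertain, and Acaa1a also overlaps 1736 bases of Myd88, an innate immune adaptor at a mean of 21.7 TPM, on the other strand.

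Acaa1a measured 205, 210.0, 141 and 192 TPM in controls and 181, 197, 85.7 and 140.3 TPM in Myc-labelled livers. Its log2 difference was -0.36 ± 0.26 (SE; limma adjusted p = 0.9998), with the smallest unadjusted p of the 38, and it spanned 2.45-fold. Acaa1b measured 42.4, 19.4, 81.8 and 84.8 TPM in controls and 166, 105, 4.69 and 137 TPM in Myc-labelled livers. The other 3 Myc-labelled livers were above every control for Acaa1b, while Myc-labelled 3 was far below all of them, and its log2 difference was 0.29 ± 1.17 (SE).

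Pex11a, a factor of peroxisome division, measured 27.0, 23.1, 21.1 and 36.4 TPM in controls and 52.9, 28.3, 16.1 and 31.9 TPM in Myc-labelled livers, with a log2 difference of 0.17 ± 0.31 (SE). Its extremes were again Myc-labelled 1 and Myc-labelled 3. Ehhadh, the L-bifunctional enzyme, spanned 30.9 to 121 TPM in Myc-labelled livers and 47.8 to 129 TPM in controls. Hsd17b4, the D-bifunctional enzyme, spanned 90.8 to 219 and 123 to 162 TPM.

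The omega-oxidation genes had the widest range of any role. Cyp4a14 and Cyp4a10 encode fatty acid omega-hydroxylases and lie close together on chromosome 4. Their coding sequences are 76.1% identical with no identical run above 23 bases, and the 60-base windows below, marked as before, differ at 28 bases.
Cyp4a10: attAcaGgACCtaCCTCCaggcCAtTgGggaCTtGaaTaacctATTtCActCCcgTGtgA
Cyp4a14: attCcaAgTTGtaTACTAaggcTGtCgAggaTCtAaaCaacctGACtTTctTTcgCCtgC
The windows lie at chr4:115524727-115524786 (plus strand) and chr4:115492174-115492233 (minus strand). By contrast Cyp4a31 is 96.6% identical to Cyp4a10, with a run of 186 bases, so those 2 levels may share reads and are uncertain.

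Cyp4a14 measured 588, 42.4, 136 and 147 TPM in controls and 593, 277, 1.48 and 74.7 TPM in Myc-labelled livers. Cyp4a10 measured 214, 12.4, 43.2 and 58.5 TPM in controls and 172, 73.8, 0.987 and 58.2 TPM in Myc-labelled livers. Both were high in control 1 and Myc-labelled 1, low in control 2, and close to absent in Myc-labelled 3. The highest liver exceeded the lowest by 399.8-fold for Cyp4a14 and 217-fold for Cyp4a10, yet the log2 differences between groups were -1.02 ± 1.84 and -0.58 ± 1.58 (SE).

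Cyp4a31 measured 13.5, 2.27, 5.75 and 4.69 TPM in controls and 9.68, 6.44, 1.01 and 4.31 TPM in Myc-labelled livers. Its highest and lowest livers, control 1 and Myc-labelled 3, were those of Cyp4a10, and its log2 difference was -0.28 ± 0.58 (SE). Aldh3a2, which oxidises fatty aldehydes made downstream of these enzymes, spanned 27.7 to 78.3 TPM in controls and 11.1 to 122 TPM in Myc-labelled livers. All 4 genes of this role had a negative group difference, none with an unadjusted limma p under 0.05, and without Myc-labelled 3 those of Cyp4a10, Cyp4a14, Cyp4a31 and Aldh3a2 turned positive, at 0.80, 0.62, 0.20 and 0.45.

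**Figure D3:**
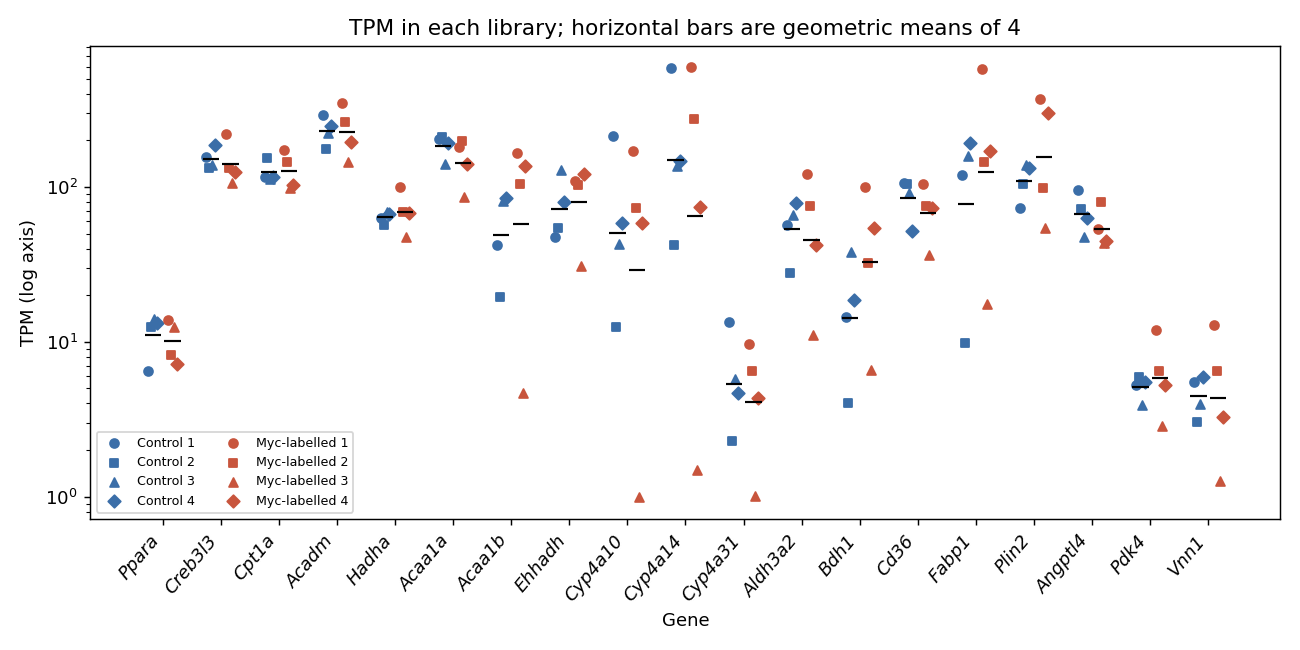
TPM of 19 of the genes in each liver (y axis, log scale; genes on the x axis; blue for controls, red for Myc-labelled livers, symbols for replicates 1 to 4), with horizontal bars at the geometric mean of each group of 4. Ppara stays between 6.51 and 14.1 TPM, whereas Cyp4a14 runs from 1.48 to 593 TPM, both ends in the Myc-labelled group.

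Cyp4a10 and Cyp4a14 followed each other closely over the 8 livers (r = 0.98, exact permutation p = 0.000347, adjusted p = 0.00417; rho = 0.95, adjusted p = 0.0134). Without Myc-labelled 3 and control 2, the livers farthest from the median of Cyp4a10, r was 0.90 (exact permutation p = 0.0194). Vnn1, a pantetheinase and a target of the receptor, also followed Cyp4a14 (r = 0.90, exact permutation p = 0.00206, adjusted p = 0.00853; rho = 0.93, adjusted p = 0.0134). Its r was 0.81 without Myc-labelled 1 and 3 (exact permutation p = 0.0486) and 0.83 without Myc-labelled 3 alone, where the adjusted p rose above 0.05.

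Vnn1 measured 5.52, 3.03, 3.98 and 5.90 TPM in controls and 12.8, 6.51, 1.27 and 3.26 TPM in Myc-labelled livers. The controls lay inside the Myc-labelled range. For Ppara with Cyp4a14, r was -0.28 (exact permutation p = 0.547, adjusted p = 0.657) and rho was 0.00, and control 1, the liver with the least Ppara, was among the highest in Cyp4a14.

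**Figure D4:**
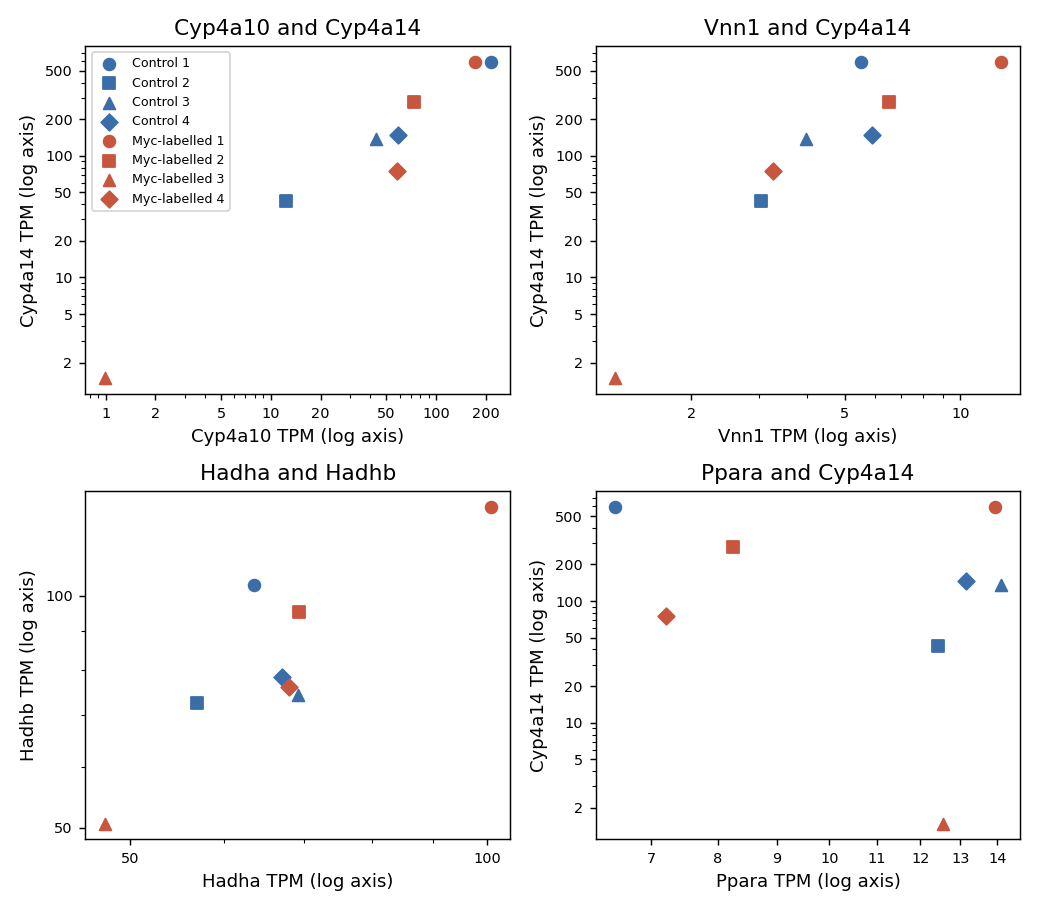
TPM of 4 gene pairs in the 8 livers, with both axes on a log scale, colours for groups and symbols for replicates. Cyp4a10 with Cyp4a14 (r = 0.98) and Vnn1 with Cyp4a14 (r = 0.90) rise together over the whole range, Hadha with Hadhb (r = 0.87) mainly through Myc-labelled 1 and 3, and Ppara shows no such relation with Cyp4a14 (r = -0.28).

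Bdh1, which makes the ketone body beta-hydroxybutyrate in mitochondria, had the largest group difference of the 38, 1.13 ± 0.93 on the log2 scale (SE; limma adjusted p = 0.9998). It measured 14.5, 4.04, 38.3 and 18.7 TPM in controls and 100.1, 32.2, 6.59 and 54.2 TPM in Myc-labelled livers. The highest and second highest livers were Myc-labelled, but Myc-labelled 3 was below 3 of the 4 controls, and the range over all livers was 24.8-fold.

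Among genes of lipid uptake and storage, Fabp1, the abundant fatty acid binding protein of hepatocytes whose promoter match is shown above, ranged 58.9-fold. It measured 119, 9.87, 159 and 192 TPM in controls and 581, 145, 17.5 and 171 TPM in Myc-labelled livers. Control 2 and Myc-labelled 3 were both far below every other liver, the next lowest being control 1, and the log2 difference was 0.69 ± 1.34 (SE). The lowest liver for Fabp1 was thus a control.

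Plin2, a lipid droplet coat protein, measured 73.6, 104, 139 and 133 TPM in controls and 370.4, 98.8, 54.5 and 299.9 TPM in Myc-labelled livers. Myc-labelled 1 and 4 were above every control and Myc-labelled 3 below every control, with a log2 difference of 0.52 ± 0.58 (SE). Plin5, the droplet protein that tethers to mitochondria, averaged 48.8 ± 15.5 and 51.7 ± 32.7 TPM (SD, n = 4 each).

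Cd36, a fatty acid transporter, measured 107, 104, 92.1 and 52.1 TPM in controls and 105, 75.9, 36.5 and 73.4 TPM in Myc-labelled livers, with a log2 difference of -0.32 ± 0.33 (SE). Its lowest control was control 4, not control 2. Angptl4, a secreted inhibitor of lipoprotein lipase, measured 95.3, 72.3, 47.4 and 63.1 TPM in controls and 53.4, 80.2, 43.4 and 45.1 TPM in Myc-labelled livers, with a log2 difference of -0.32 ± 0.25 (SE). After Ppara it followed the other genes least, with a median r of 0.30.

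Pdk4, a kinase that shuts off pyruvate oxidation, was low, at 5.25, 5.92, 3.92 and 5.48 TPM in controls and 11.8, 6.51, 2.87 and 5.30 TPM in Myc-labelled livers. It followed Cpt1a (r = 0.85, exact permutation p = 0.00213, adjusted p = 0.00853; rho = 0.86, adjusted p = 0.0429). Without Myc-labelled 1 and control 2 r was 0.73 (exact permutation p = 0.10), and the adjusted p also missed 0.05 without Myc-labelled 1 (r = 0.72), without Myc-labelled 3 (r = 0.80) and under median-of-ratios scaling (r = 0.60). With Angptl4, another target of the receptor, no relation passed (r = 0.28, exact permutation p = 0.521, adjusted p = 0.657).

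Over all 703 pairs of the 38 genes the median r was 0.75, 78.9% of pairs exceeded 0.5 and 28 were negative. Over all tested genes the median r was 0.19 and 22.2% of pairs exceeded 0.5. These values are descriptions, since all pairs share the same 8 libraries. For 36 of the 38 the median r with the others exceeded 0.5, Ppara and Angptl4 being the exceptions. Centred on the group means and pooled over both groups, the median was 0.78. Without Myc-labelled 1 and 3 it fell to 0.37, with 42.8% of pairs above 0.5 and 189 negative, where all genes had a median of 0.016.

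**Figure D5:**
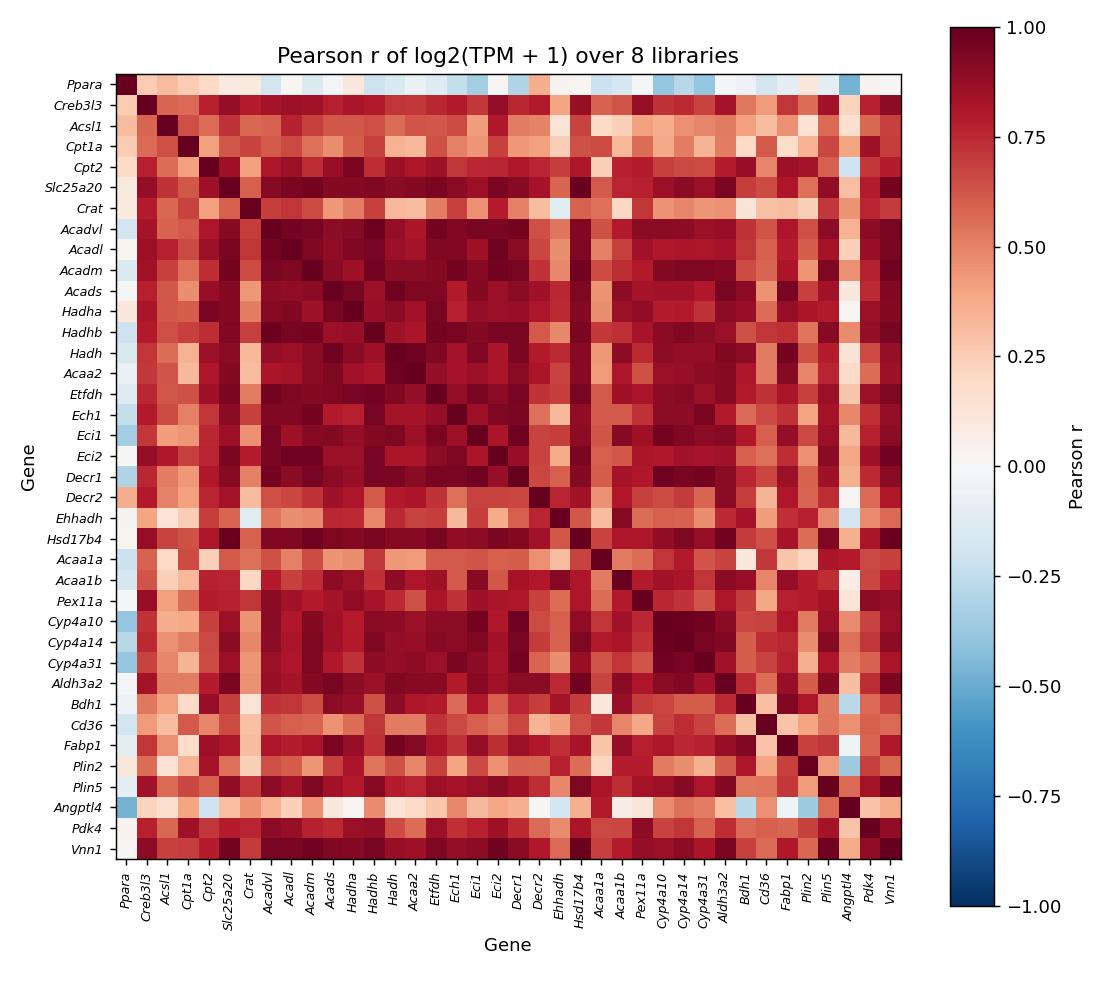
Pearson r of log2(TPM + 1) over the 8 livers for each pair of the 38 genes, both axes in the same order by role (red positive, blue negative). Most cells are red, with a median of 0.75, and the Ppara line stands apart with values from -0.47 to 0.36.

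The remaining pairs, also chosen by role among the 12, did not pass. Ppara had an r of -0.17 with Acaa1b, 0.25 with Cpt1a, 0.10 with Hadha and 0.26 with Creb3l3, each with an adjusted p of at least 0.657 (exact permutation). Cd36 with Plin2 (r = 0.39) and Acadm with Ehhadh, its peroxisomal counterpart (r = 0.48), had adjusted p of 0.657 and 0.552 (exact permutation). In all, 4 of 12 pairs passed by r and 3 of 12 by rho. The permutation compares each pair with no relation at all, whereas 22.2% of pairs of all tested genes exceeded 0.5. The share of all gene pairs that would pass was not computed, so these counts are not read as particular to the chosen pairs. Over the 6 livers left without Myc-labelled 1 and 3, none of the 12 passed after adjustment, although r was still 0.91 for Cyp4a10 with Cyp4a14 and 0.81 for Vnn1 with Cyp4a14, and 0.62 for Cpt1a with Pdk4.

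Other genes of the pathway, 75 in all, were fixed as a second list by pathway membership. Of these, 0 passed an adjusted limma p of 0.05, 0 had an unadjusted p under 0.05, 29 were higher and 46 lower, and the median log2 difference was -0.049. Of the 75, 46 (61.3%, beside 35.5% of all genes) were lowest in Myc-labelled 3 and 31 (41.3%, beside 35.8% of all genes) were highest in Myc-labelled 1. The 4 with the smallest p were Cidec, a droplet fusion protein (3.25 ± 1.41 against 12.4 ± 14.2 TPM), Cpt1b, the muscle carnitine transferase (1.41 ± 1.03 against 2.56 ± 0.943 TPM), Apoc3, an inhibitor of triglyceride clearance (3032 ± 353 against 2349.7 ± 654 TPM) and Sirt3, a mitochondrial deacetylase (63.9 ± 14.7 against 49.5 ± 16.2 TPM; control against Myc-labelled, SD, n = 4 each).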

How the data were processed

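RNA-seq libraries of 8 livers were made and sequenced; the submitters' processing notes name HISAT2, StringTie and the mm10 build, without versions. TPM and FPKM were deposited by the authors for each gene, per the file headers. Coverage, a depth signal, was also deposited by the authors and was used with FPKM to derive aligned bases. No read counts were used. Repeated gene IDs (10 to 15 per library) were summed. IDs matched GENCODE M21 (98.3%), which gave overlaps and coding sequences; promoters came from RefSeq (GRCm38.p6).

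Log2(TPM + 1) was tested with limma 3.58.1 (R 4.3.3; trended, robust, two-sided) for genes averaging at least 1 TPM, with Benjamini-Hochberg adjustment over all genes tested. Fold changes on this scale understate those of low genes. Correlations used exact permutation of the 40320 pairings (Python 3.11.15, scipy 1.17.1), adjusted over 12 pairs. The limma procedure was tested on simulated data with each gene drawn independently, so without the shifts of whole libraries seen here. The correlation code was tested on simulated pairs.

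The genes, lists, pairs and tests were chosen with earlier results of these data known. Values per library are given for Ppara, the 14 genes with the smallest limma p, the Cyp4a genes and the smallest p of each role; the rule also takes 4 other pathway genes and 2 markers per list. Genes of the tested pairs, Acaa1b, Fgb and Saa1 were added after seeing the data, as were the Xist term and leaving out Myc-labelled 1 and 3 together. Same-numbered livers deviated with r of 0.13, -0.058, 0.065 and 0.070, so numbers were not treated as pairs.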

Additional observations from a re-analysis of the deposited data

Results flagged for a closer look

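In 6 of the 76 sets of 4 livers examined (38 genes in 2 groups), 1 liver stood apart from the other 3 of its group by Dixon's test at the 95% level, which chance gives in about 5% of sets. Control 2 accounted for 3 of them: its Cpt1a was the highest of the controls at 155 TPM, while its Hsd17b4 (123 TPM) and Fabp1 (9.87 TPM) were the lowest. Myc-labelled 3 accounted for 2, with the lowest Ehhadh (30.9 TPM) and Acaa1b (4.69 TPM) of its group. The remaining one was Ppara in control 1, the lowest control at 6.51 TPM. In control 2 the flags of Cpt1a and of Fabp1 and Hsd17b4 thus lay at opposite ends. These flags are a description only. The sets share the same livers, and the number flagged was not tested against chance.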

How the results depend on the processing

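In every setting tried 0 of the 38 genes passed an adjusted limma p of 0.05, and over all genes 0 passed except under array weights, where 1, Gm43305, was lower (log2 difference -2.04, limma adjusted p = 0.0469; named after its value was seen). With a replicate block, whose pairing the data did not bear out, 0 passed and the median difference stayed at 0.030; it changed no call. No difference passed, so a change of sign is no change of call, and the cause was not tested. The depth of single genes cannot be derived from TPM, and 4 livers a group give wide intervals.

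Signs turned on the log2 scale as follows. With a pseudocount of 0.1, Vnn1 was -0.035. With median-of-ratios scaling, Cpt1a was -0.015, Hadhb -0.0067, Eci2 -0.0049, Decr1 -0.031 and Vnn1 -0.017. With quantile normalization, Acaa2 was 0.031, Decr1 -0.016 and Vnn1 -0.0037. With FPKM, Crat was 0.019 and Acaa2 0.0075. With array weights, Cpt2 was -0.032, Slc25a20 0.0018, Crat 0.035, Acadm 0.13, Acaa2 0.078, Ech1 0.13, Hsd17b4 0.064, Cyp4a10 0.36, Cyp4a14 0.35, Cyp4a31 0.13, Aldh3a2 0.13, Plin5 0.30 and Angptl4 0.099. With an Xist term, Slc25a20 was 0.037, Crat 0.21, Acadm 0.10, Acaa2 0.036, Ech1 0.13, Hsd17b4 0.054, Aldh3a2 0.047 and Plin5 0.17.

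Leaving out each liver in turn, or Myc-labelled 1 and 3 together, the count at an unadjusted p under 0.05 ran from 0 to 4, and 33 of the 38 log2 differences changed sign at least once. The ranges were Ppara -0.48 to 0.024, Creb3l3 -0.33 to 0.017, Acsl1 -0.066 to 0.24, Cpt1a -0.13 to 0.14, Cpt2 -0.12 to 0.26, Slc25a20 -0.43 to 0.18, Crat -0.30 to 0.15, Acadvl -0.10 to 0.28, Acadl -0.18 to 0.36, Acadm -0.24 to 0.19, Acads -0.046 to 0.33, Hadha -0.073 to 0.28, Hadhb -0.18 to 0.27, Hadh -0.11 to 0.40, Acaa2 -0.22 to 0.18, Etfdh -0.15 to 0.39, Ech1 -0.54 to 0.26, Eci1 -0.077 to 0.44, Eci2 -0.20 to 0.21, Decr1 -0.29 to 0.41, Decr2 -0.35 to 0.069, Ehhadh -0.034 to 0.62, Hsd17b4 -0.26 to 0.16, Acaa1b -0.20 to 1.43, Pex11a -0.10 to 0.45, Cyp4a10 -1.35 to 0.80, Cyp4a14 -2.01 to 0.62, Cyp4a31 -0.61 to 0.20, Aldh3a2 -0.67 to 0.45, Fabp1 -0.27 to 1.62, Plin5 -0.46 to 0.31, Pdk4 -0.10 to 0.47 and Vnn1 -0.39 to 0.47. Bdh1, Plin2, Acaa1a and Cd36 kept their sign in all 20 alternatives.

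Of the correlations, r of Ppara with Hadha was -0.21 with median-of-ratios scaling. Over the same leave-outs r ran from -0.31 to 0.32 for Ppara with Hadha, -0.36 to 0.012 for Ppara with Acaa1b, -0.43 to 0.59 for Cd36 with Plin2 and -0.18 to 0.70 for Acadm with Ehhadh. Without the 2 livers farthest from the median of the first gene, Ppara with Cpt1a was -0.17, Cd36 with Plin2 -0.19 and Acadm with Ehhadh -0.18. Hadha with Hadhb lost its call in 7 of the 8 single leave-outs, and also under median-of-ratios scaling.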

Other observations

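Genes of fatty acid and sterol synthesis, the opposite arm of lipid metabolism, showed another order of livers. Of 25 such genes, 0 passed an adjusted limma p of 0.05 and 0 had an unadjusted p under 0.05, with 8 higher and 17 lower in Myc-labelled livers and a median log2 difference of -0.11. Myc-labelled 1 was the highest liver for 0 of the 25, beside 35.8% of all genes. Myc-labelled 3 was the lowest for 6 of the 25, beside 35.5% of all genes. Their summed level was 1698 to 3897 TPM in controls and 1795 to 5652 TPM in Myc-labelled livers, and the median r among them was 0.60. Scd1, the stearoyl-CoA desaturase, measured 141, 419, 567 and 539 TPM in controls and 133, 915, 242 and 2609 TPM in Myc-labelled livers.

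Of the Cyp4a family outside the 38, Cyp4a12a and Cyp4a12b divided in another way. Cyp4a12a, a male-biased omega-hydroxylase of mouse liver, measured 1.91, 0.579, 11.7 and 0.448 TPM in controls and 0.654, 0.149, 19.8 and 13.9 TPM in Myc-labelled livers. Cyp4a12b measured 3.60, 1.73, 20.4 and 0.701 TPM in controls and 1.02, 0.632, 29.0 and 32.4 TPM in Myc-labelled livers. Both were highest in control 3, Myc-labelled 3 and Myc-labelled 4, the 3 livers with Xist below 1 TPM, and Myc-labelled 3 was thus high in them while lowest in Cyp4a10 and Cyp4a14. Cyp4a32 did not divide this way. It measured 30.3, 6.56, 11.4 and 12.3 TPM in controls and 21.5, 21.5, 7.35 and 8.56 TPM in Myc-labelled livers, highest in control 1 and lowest in control 2. The coding sequence of Cyp4a32 is 96.0% identical to that of Cyp4a31, with an identical run of 211 bases. Those levels may therefore share reads and are uncertain.

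Fgf21, a hepatokine and PPAR alpha target, measured 0.604, 0.691, 0.255 and 2.79 TPM in controls and 22.2, 0.603, 0.489 and 4.06 TPM in Myc-labelled livers, highest in Myc-labelled 1.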
